A study of Homo sapiens with 6 samples.

Results

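Translation initiation factors are the proteins that bring a messenger RNA, the initiator tRNA and the small ribosomal subunit together and place them at a start codon. Their genes were followed here in human cells labelled BE(2)-C, by that label a line of neuroblastoma origin. Cells infected with a lentivirus for a non-silencing short hairpin RNA (NS, 3 libraries) were set against cells infected with a lentivirus for a hairpin against ACSS2 (shACSS2, 3 libraries), the enzyme that makes acetyl-CoA from acetate in the cytosol and nucleus. Both groups had been selected with puromycin. The sample tags call NS wild type and the other group ACSS2 deficient. The titles write siACSS2 for the hairpin group, and the treatment text in 1 place names another target for the established line. Neither a time after infection nor the number of clones is given in the sources used here.

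Of 58735 genes in the count table, 128 had names of the form EIF followed by a digit from 1 to 6 and further capitals or digits. Left out by rule were 4 EIF2AK kinases, 75 names ending in P and digits, and the Y-linked EIF1AY, which leaves 48 initiation factor genes. The clause on P and digits was meant for pseudogenes, but it also removed the 3 repressors EIF4EBP1, EIF4EBP2 and EIF4EBP3, which are described below with the other genes of the pathway. A total of 47 of the 48 genes passed the filter on low counts. The exception was EIF4E1B, a cap-binding protein best known from oocytes, with 0 to 4 counts in a library.

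Initiation runs through a series of complexes. The ternary complex of eIF2, GTP and the initiator tRNA joins the small subunit with the help of eIF1, eIF1A, eIF3 and eIF5, while eIF4F (the cap binder eIF4E, the scaffold eIF4G and the helicase eIF4A) brings the mRNA. After the start codon is found, eIF2 leaves with GDP and is recharged by eIF2B, the step that stress kinases block by phosphorylating the alpha subunit of eIF2, and eIF5B joins the large subunit.

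The targeted gene was checked first. ACSS2 stood at 20.8, 20.4 and 20.2 CPM (library-scaled read counts, TMM-normalised) in NS replicates 1 to 3 and at 4.66, 5.13 and 6.15 CPM in shACSS2 replicates 1 to 3. Its log2FC (log2 fold change, shACSS2 over NS) was −1.94, with SE 0.145 and adjusted p = 1.95e-06 by the quasi-likelihood test of edgeR. Permuting the 6 libraries (exact, two-sided) gave p = 0.1, which is as low as this design can go. Library totals ran from 16617885 to 20831599 counts. The labels name no separate cultures behind the replicates, and the p-values therefore reflect the spread of these 6 libraries alone, possibly a technical one. Of 11 markers of adrenergic neuroblastoma, PHOX2A, TFAP2B and TH had 0 counts in every library, MYCN reached at most 2.11 CPM, and GATA3 and ISL1 were the only markers with a mean of at least 5 CPM. Summed CPM of these 11 ran from 39.5 to 45.7 in NS and from 42.5 to 49.4 in shACSS2. Summed levels of 5 embryonic kidney genes ran from 699 to 797 CPM in NS and from 667 to 751 CPM in shACSS2, mostly from IRS4. The 5 epithelial genes ran from 341 to 361 CPM in NS and from 386 to 461 CPM in shACSS2, 6 fibroblast genes from 30.9 to 36.7 and from 38.1 to 47.9 CPM, and 5 leukocyte genes were at or under 3.54 CPM in sum. The part of these markers in the results below was not tested. With only GATA3 and ISL1 at a mean of at least 5 CPM, the 11 neuroblastoma markers do not bear out the label. The identity of the line was not tested, and the cells are called here by their label only.

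Among the 47 tested initiation factors, 9 rose in shACSS2 and 3 fell at an adjusted p of 0.05 by edgeR, which leaves 35 not called. The genes that rose were EIF5A2, EIF2B3, EIF4E2, EIF1B, EIF3E, EIF3M, EIF2A, EIF2S1 and EIF5A, and those that fell were EIF2S2, EIF3J and EIF4A2. Across all 16210 tested genes, 7.48% were called higher and 9.64% lower (17.1% in either direction), against 19.1% and 6.38% of these 47. Most initiation factors are abundant, and the shares among the 10444 genes that averaged 10 CPM or more were 9.96% higher and 11.1% lower, while 9 and 3 of the 45 initiation factors above that level were called. All shACSS2 libraries lay above all NS libraries for 22 of the 47 (17.6% of all tested genes), and below them for 5 of the 47 (18.7% of all tested genes). The changes were small. The median log2FC of the 47 was 0.13 against 0.00 for all tested genes, and 33 of the 47 had a positive value. EIF5A2 had the only called change beyond 1.5-fold, and without shACSS2 replicate 1 it was under that size (log2FC 0.55). In bulk RNA, a change in the share of cells that express a gene and a change in RNA per cell cannot be told apart.

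The number of genes called rested on single libraries. Without NS replicate 1 only EIF5A2 was still called higher (1 gene, with 1.87% of all genes called higher), and EIF2S2, EIF3J and EIF4A2 were called lower (4.28% of all genes). Without NS replicate 3 the counts were 4 higher and 2 lower (2.20% and 4.78% of all genes). Without shACSS2 replicate 1 they were 17 higher and 3 lower (10.98% and 12.5% of all genes), and without NS replicate 2 they were 10 and 5 (6.85% and 8.62% of all genes). EIF5A2, EIF2S2 and EIF3J kept their call and direction under all 16 alternatives run at this threshold. The scaling moved the balance as well, since 43.7% of all called genes were higher with TMM and 25.8% with library totals. With library totals 7 initiation factors were called higher and 3 lower, against 4.53% and 13.00% of all tested genes.

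**Figure D1:**
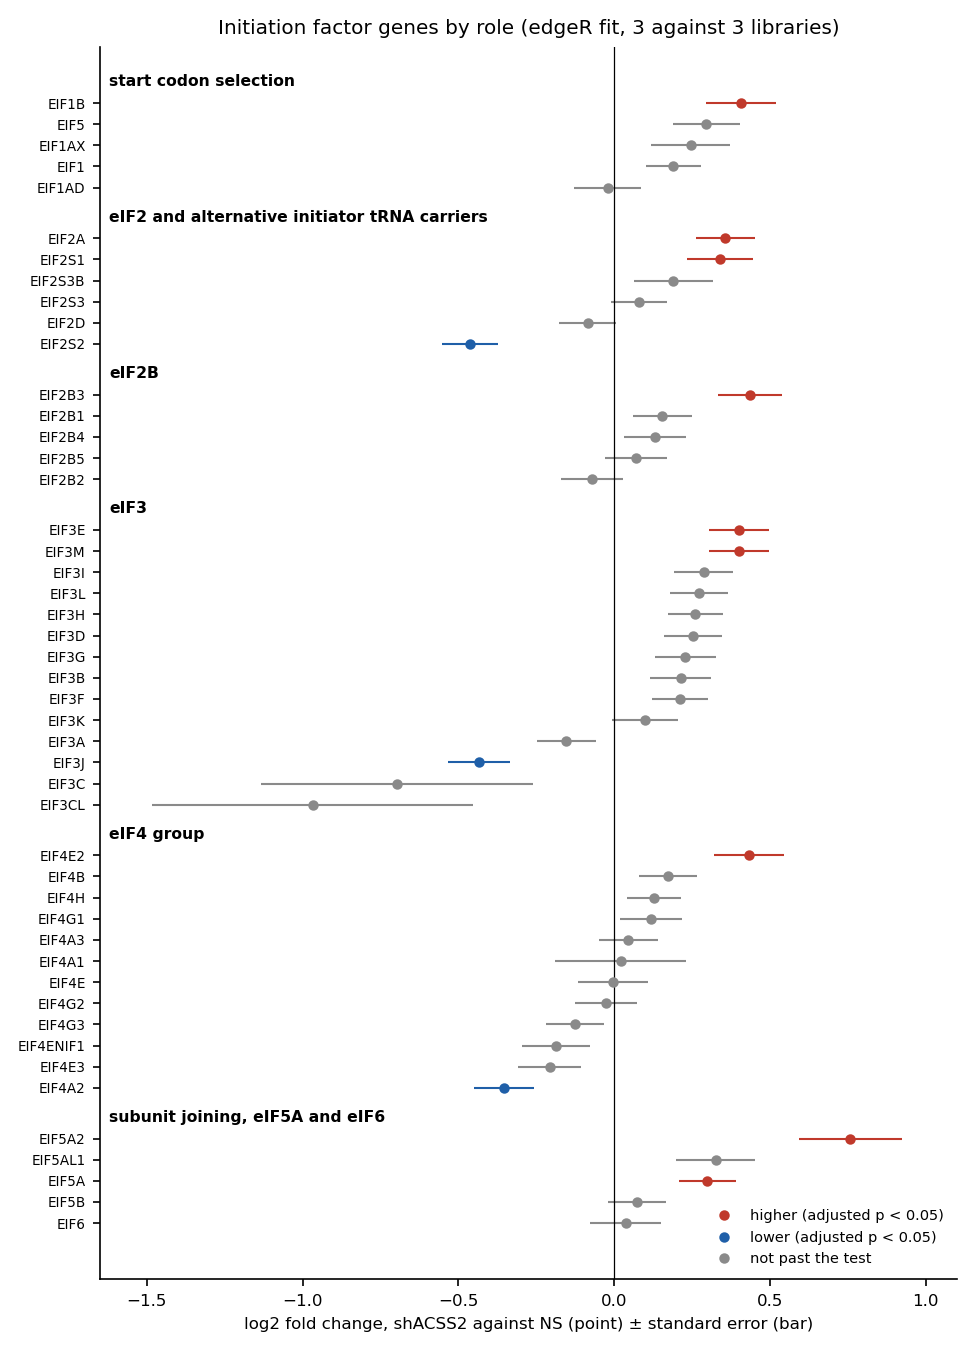
Log2 fold change (shACSS2 against NS) of each of the 47 tested initiation factor genes, grouped by role, with its standard error. Points to the right of 0 are higher in shACSS2, and the 9 genes called higher and 3 called lower are coloured.

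**Figure D2:**
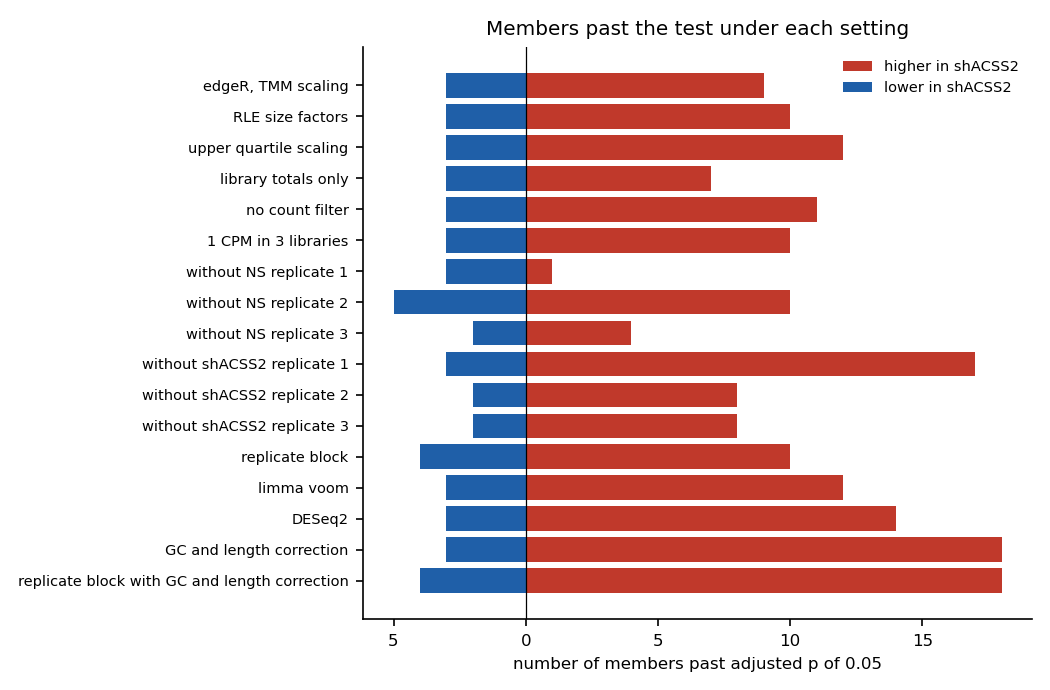
Number of initiation factor genes past an adjusted p of 0.05 under each setting, drawn to the right of 0 where higher in shACSS2 and to the left where lower. Counts of higher genes run from 1 (without NS replicate 1) to 18 (GC and length correction), while counts of lower genes stay between 2 and 5.

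The subunits of eIF2, the carrier of the initiator tRNA, moved apart. EIF2S2, the beta subunit (ENSG00000125977, chromosome 20, 34088298 to 34112332, minus strand, GRCh38), stood at 205, 223 and 203 CPM in NS and at 156, 154 and 148 CPM in shACSS2. Every shACSS2 library was below every NS library. Its mean fell from 210 ± 11.3 to 153 ± 4.26 CPM (SD, n = 3 per group; log2FC −0.46, SE 0.0905; edgeR adjusted p = 0.00333). EIF2S1 (ENSG00000134001, chromosome 14, 67359997 to 67386516), the alpha subunit whose phosphorylation restrains initiation, stood at 116, 131 and 114 CPM in NS and at 172, 148 and 137 CPM in shACSS2. The groups did not overlap, and shACSS2 replicate 1 was the highest. The log2FC of EIF2S1 was 0.34 (SE 0.106; edgeR adjusted p = 0.0374), a call that ended without NS replicate 1 (0.168), without NS replicate 3 (0.154), without shACSS2 replicate 2 (0.0620) and with library totals (0.0755). EIF2S3, the gamma subunit that binds GTP and the tRNA, had 649 ± 33.5 CPM in NS and 687 ± 42.0 CPM in shACSS2 (SD, n = 3 per group; log2FC 0.08, edgeR adjusted p = 0.585), and its groups overlapped.

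Ratios of counts within a library do not depend on scaling. There were 0.565, 0.588 and 0.562 EIF2S1 counts per EIF2S2 count in NS replicates 1 to 3, and 1.11, 0.961 and 0.927 in shACSS2 replicates 1 to 3. EIF2S3 counts per EIF2S2 count ran from 2.97 to 3.33 in NS and from 4.28 to 4.72 in shACSS2. These pairs were chosen after the values were seen and carry no test. The ratios compare transcripts of different length and say nothing about protein amounts.

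**Figure D3:**
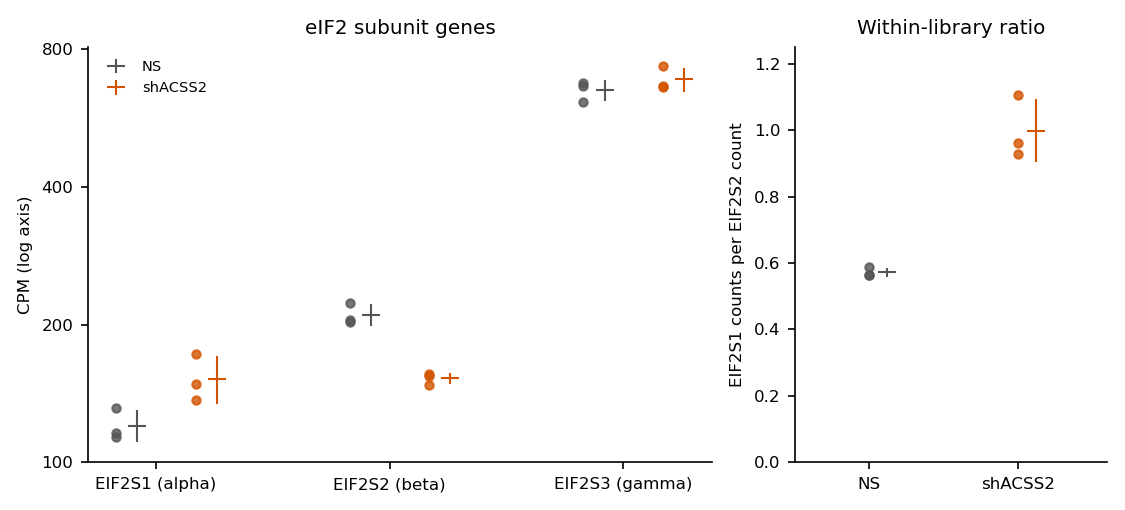
Left, CPM (log axis) of the 3 eIF2 subunit genes in each library, with the mean and SD beside the points. Right, EIF2S1 counts per EIF2S2 count in each library, between 0.562 and 0.588 in NS and between 0.927 and 1.11 in shACSS2.

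Carriers of the initiator tRNA outside eIF2 gave mixed values. EIF2A, a factor of alternative and stress-linked initiation (ENSG00000144895, chromosome 3, 150546678 to 150584242), stood at 115, 127 and 131 CPM in NS and at 168, 158 and 152 CPM in shACSS2. All shACSS2 libraries lay above the NS libraries, and the log2FC was 0.36 (SE 0.0942; edgeR adjusted p = 0.0177, and 0.134 without NS replicate 1). EIF2D, which works in re-initiation and ribosome recycling, had a log2FC of −0.08 (edgeR adjusted p = 0.559). EIF2S3B, a copy of EIF2S3 that can share its reads, had 229 to 297 counts in a library and a log2FC of 0.19 (edgeR adjusted p = 0.318).

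Of the 5 subunits of eIF2B, the exchange factor that recharges eIF2, only EIF2B3 was called (20% higher, against 7.48% of all tested genes). EIF2B3 encodes the gamma subunit (ENSG00000070785, chromosome 1, 44850522 to 44986722, minus strand). It stood at 52.7, 55.6 and 51.7 CPM in NS and at 78.0, 73.3 and 65.2 CPM in shACSS2, with no overlap. Its log2FC was 0.44 (SE 0.101; edgeR adjusted p = 0.00930), and the call ended without NS replicate 1 (0.0623) or NS replicate 3 (0.0529). The catalytic epsilon subunit EIF2B5 had 41.9 ± 2.44 CPM in NS and 44.0 ± 1.12 CPM in shACSS2 (SD, n = 3 per group; edgeR adjusted p = 0.675). EIF2B1, EIF2B4 and EIF2B2 had log2FC values of 0.15, 0.13 and −0.07. There were 1.20 to 1.32 EIF2B3 counts per EIF2B5 count in NS and 1.50 to 1.81 in shACSS2, a pair also chosen after its values were seen. No test was made of whether EIF2B3 differed from the other subunits.

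eIF3 is the largest initiation factor, a scaffold on the small subunit that links it to eIF4F. Among its 14 genes EIF3E and EIF3M rose, EIF3J fell, and 11 were not called. The shares were 14.3% higher and 7.14% lower, against 7.48% and 9.64% of all tested genes. EIF3E, a subunit of the structural core, stood at 564, 660 and 631 CPM in NS and at 887, 786 and 776 CPM in shACSS2. EIF3M, another core subunit (ENSG00000149100, chromosome 11, 32583798 to 32606262), stood at 224, 253 and 242 CPM in NS and at 344, 301 and 304 CPM in shACSS2. For both genes the lowest shACSS2 library was above the highest NS library. Their log2FC values were 0.40 (SE 0.0965) for EIF3E and 0.40 (SE 0.0948) for EIF3M (edgeR adjusted p = 0.0111 and 0.0103), and without NS replicate 1 the adjusted p was 0.0980 and 0.0907.

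Just above the threshold stood EIF3I, EIF3L, EIF3H and EIF3D, with log2FC values of 0.29, 0.27, 0.26 and 0.25 (edgeR adjusted p = 0.0505, 0.0539, 0.0542 and 0.0707). For each of them the shACSS2 libraries lay above the NS libraries. EIF3L shared 52.0% of its exon bases with other annotated genes on either strand (41.6% on its own strand), so its count is less certain. EIF3G, EIF3B, EIF3F and EIF3K had log2FC values from 0.10 to 0.23, and EIF3A, the largest subunit, had 499 ± 32.7 CPM in NS and 449 ± 33.1 CPM in shACSS2 (SD, n = 3 per group; log2FC −0.15, edgeR adjusted p = 0.279). Without shACSS2 replicate 1, the genes EIF3B, EIF3D, EIF3F, EIF3G, EIF3H, EIF3I and EIF3L were also called higher.

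EIF3J, the loosely bound subunit that helps to place eIF3 at the decoding centre (ENSG00000104131, chromosome 15, 44537057 to 44563029), moved the other way. It stood at 78.9, 82.8 and 77.4 CPM in NS and at 64.8, 57.4 and 55.0 CPM in shACSS2, with every shACSS2 library lower. Its mean fell from 79.7 ± 2.76 to 59.1 ± 5.11 CPM (SD, n = 3 per group; log2FC −0.43, SE 0.0993; edgeR adjusted p = 0.00862). There were 7.14, 7.98 and 8.15 EIF3E counts per EIF3J count in NS and 13.7, 13.7 and 14.1 in shACSS2, a pair also chosen after its values were seen.

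The near-identical copies EIF3C and EIF3CL stood apart in NS, and their values are uncertain because reads of one can be given to the other. EIF3C stood at 88.0, 28.0 and 75.8 CPM in NS and at 38.5, 37.2 and 42.5 CPM in shACSS2. EIF3CL stood at 6.48, 5.54 and 19.0 CPM in NS and at 3.79, 5.80 and 6.38 CPM in shACSS2. Summing both did not bring NS replicate 2 to the level of the others, with 94.4, 33.5 and 94.8 CPM in NS and 42.3, 43.0 and 48.9 CPM in shACSS2. NS replicates 1 and 3 were thus far above all the other libraries, and NS replicate 2 was below all shACSS2 libraries. In the fit of all 6 libraries neither gene was called (log2FC values −0.70, SE 0.437, and −0.97, SE 0.515; edgeR adjusted p = 0.340 and 0.250). Without NS replicate 2 both were called lower, at −1.06 (SE 0.119; edgeR adjusted p = 0.000242) and −1.27 (SE 0.382; edgeR adjusted p = 0.0488).

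**Figure D4:**
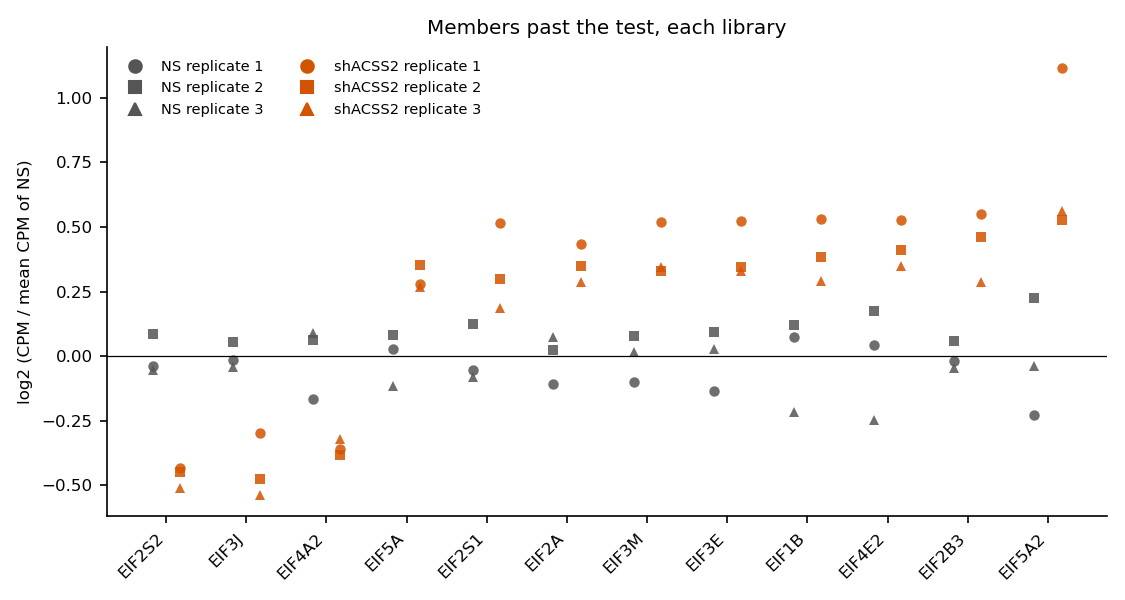
Log2 ratio of CPM to the NS mean for the 12 initiation factor genes past the test, with NS libraries in grey, shACSS2 libraries in orange and replicates by marker shape. The groups do not overlap for any of the 12 genes, and shACSS2 replicate 1 is the highest library for 8 of the 9 genes that rose. The genes were selected by a test on these same libraries, so the lack of overlap is a description and no separate support.

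In the eIF4 group, which recruits the mRNA, EIF4E2 rose and EIF4A2 fell, and the other 10 of 12 tested genes were not called. These shares, 8.33% in each direction, were near the 7.48% higher and 9.64% lower of all tested genes. EIF4A2, a helicase paralog of EIF4A1 (ENSG00000156976, chromosome 3, 186783205 to 186789900), stood at 311, 364 and 371 CPM in NS and at 272, 267 and 279 CPM in shACSS2. NS replicate 1 was the lowest NS library and still above all shACSS2 libraries. The log2FC was −0.35 (SE 0.0950; edgeR adjusted p = 0.0191). Leaving out NS replicate 3 (0.0989), or replicate 2 (0.0676) or 3 (0.0524) of shACSS2, ended the call. EIF4A3, the family member of the exon junction complex, had 188 ± 13.2 CPM in NS and 194 ± 9.72 CPM in shACSS2 (SD, n = 3 per group; edgeR adjusted p = 0.782). The ratio of EIF4A2 to EIF4A3 counts ran from 1.61 to 2.14 in NS and from 1.34 to 1.46 in shACSS2. This pair was also chosen after its values were seen and carries no test.

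EIF4A1, usually the abundant helicase of eIF4F, had only 60 to 83 counts in a library. All of its annotated exon bases (100%) also belong to other annotated genes, among them the read-through gene SENP3-EIF4A1. The other genes there held at most 6 counts in a library, so few reads are counted under any of these names, and the level and the log2FC of EIF4A1 (0.02, SE 0.211) say little about its transcript. The elongation factor EEF1G was at 0 counts in all libraries, and 99.9% of its exon bases are shared with 1 other annotated gene.

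EIF4E2, a cap-binding homolog that can repress translation (ENSG00000135930, chromosome 2, 232550052 to 232583644), stood at 69.0, 75.6 and 56.5 CPM in NS and at 96.7, 89.1 and 85.5 CPM in shACSS2. The groups did not overlap, and its log2FC was 0.43 (SE 0.113; edgeR adjusted p = 0.0166). The call ended without NS replicate 1 (0.0669) or NS replicate 3 (0.107). Of the exon bases of EIF4E2, 33.2% are shared with genes on the opposite strand and 0% with genes on its own strand. EIF4E, the main cap binder, had 64.2 ± 6.03 CPM in NS and 64.1 ± 7.89 CPM in shACSS2 (SD, n = 3 per group), with a log2FC of 0.00 (SE 0.112; edgeR adjusted p = 0.985). EIF4E3 and EIF4ENIF1, the latter the nuclear importer of eIF4E, were lower in every shACSS2 library than in any NS library, at log2FC values of −0.21 and −0.19, but did not pass the test (edgeR adjusted p = 0.164 and 0.249).

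The scaffolds and cofactors of eIF4F did not pass the test. EIF4B, which stimulates the helicase and was the most abundant of all initiation factor genes by CPM, stood at 965, 965 and 1096 CPM in NS and at 1070, 1163 and 1180 CPM in shACSS2, with overlap (log2FC 0.17, SE 0.0925; edgeR adjusted p = 0.211). EIF4G2, a scaffold of cap-independent initiation, stood at 733, 784 and 694 CPM in NS and at 818, 669 and 685 CPM in shACSS2. Its log2FC was −0.03 (SE 0.0998; edgeR adjusted p = 0.889). EIF4G1, EIF4G3 and EIF4H had log2FC values of 0.12, −0.13 and 0.13 (edgeR adjusted p = 0.443, 0.365 and 0.335).

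Of the 5 genes grouped here under start codon choice, 4 had a positive log2FC. Only 1 was called (20% higher, against 7.48% of all tested genes). EIF1B, a paralog of EIF1 (ENSG00000114784, chromosome 3, 40309684 to 40312424), stood at 51.8, 53.5 and 42.4 CPM in NS and at 71.2, 64.2 and 60.3 CPM in shACSS2. All shACSS2 libraries were higher, with a log2FC of 0.41 (SE 0.113; edgeR adjusted p = 0.0227, and 0.0710 and 0.135 without NS replicate 1 or 3). EIF1, which guards the fidelity of start codon choice, had 471 ± 21.1 CPM in NS and 538 ± 14.2 CPM in shACSS2 (SD, n = 3 per group; log2FC 0.19, edgeR adjusted p = 0.146). EIF5, the factor that triggers GTP hydrolysis by eIF2, and EIF1AX, a scanning factor, had log2FC values of 0.30 and 0.24 (edgeR adjusted p = 0.0683 and 0.190). EIF1AX stood at 547 CPM in shACSS2 replicate 1 against 381 and 400 CPM in replicates 2 and 3, and EIF5 at 390 against 295 and 318 CPM. EIF1AD, named for its likeness to EIF1A and not shown here to act in start codon choice, was level at −0.02.

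Both hypusine-bearing eIF5A genes were called higher. They were 2 of the 5 genes grouped under subunit joining, eIF5A and eIF6 (40%, against 7.48% of all tested genes). eIF5A helps ribosomes through difficult stretches such as runs of proline, and its activity depends on hypusine, an amino acid made from the polyamine spermidine. EIF5A (ENSG00000132507, chromosome 17, 7306999 to 7312463) stood at 714, 740 and 645 CPM in NS and at 849, 893 and 842 CPM in shACSS2, with no overlap. Its log2FC was 0.30 (SE 0.0907; edgeR adjusted p = 0.0336). This call was lost with library totals and on leaving out NS replicate 1 or 3, or shACSS2 replicate 2 or 3 (0.0712 to 0.159).

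EIF5A2, the scarcer paralog (ENSG00000163577, chromosome 3, 170888415 to 170908693, minus strand), stood at 12.1, 16.6 and 13.8 CPM in NS and at 30.7, 20.4 and 20.9 CPM in shACSS2. The groups did not overlap, and shACSS2 replicate 1 was well above the others. Its mean rose from 14.2 ± 2.25 to 23.99 ± 5.78 CPM (SD, n = 3 per group; log2FC 0.76, a fitted fold of 1.69, SE 0.165; edgeR adjusted p = 0.00625). Without shACSS2 replicate 1 the log2FC of EIF5A2 was 0.55 (SE 0.134; edgeR adjusted p = 0.00824). Per kilobase of annotated exon, NS levels were 334 CPM for EIF5A and 2.53 CPM for EIF5A2. The intronless copy EIF5AL1 had a log2FC of 0.33 (edgeR adjusted p = 0.0851) and can share reads with EIF5A. EIF5B, the GTPase of subunit joining, and EIF6, which keeps free large subunits apart from small ones, had log2FC values of 0.07 and 0.04 (edgeR adjusted p = 0.638 and 0.859).

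Levels can be compared between genes only per length. In NS, CPM per kilobase of annotated exon was highest for EIF3I (430), EIF3E (401) and EIF5A (334), followed by EIF4B (242), EIF2S3 (227) and EIF1 (202). Below 10 CPM per kilobase stood EIF1AD (9.10), EIF4ENIF1 (8.70), EIF2S3B (5.71), EIF4E (5.31), EIF5AL1 (4.71), EIF4E3 (3.87), EIF3CL (3.35), EIF5A2 (2.53), EIF4A1 (2.21) and EIF4E1B (0.0454). The length counts every annotated exon base, also of 3′ ends that these cells may not use (12096 bases for EIF4E).

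Several of the pseudogenes left out by rule carried counts that can come from the parent genes. Of 72 such rows, 10 had at least 100 counts over the 6 libraries. EIF2S2P4, a copy of EIF2S2, held 5.48% as many counts as its parent, with 213, 248 and 217 counts in NS and 103, 176 and 134 in shACSS2 (log2FC −0.51, edgeR adjusted p = 0.0681). EIF1AXP1 held 5.44% as many counts as EIF1AX, with a log2FC of 0.33 (edgeR adjusted p = 0.157). A larger share, 15.1% of the counts of EIF4E, was held by EIF4EP2 (log2FC −0.02, edgeR adjusted p = 0.944). Counts of EIF4A1P10 (196 to 272 in a library) exceeded those of EIF4A1 itself.

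GC content separated the shACSS2 libraries. Across 11893 genes that averaged 5 CPM or more, the Spearman coefficient between GC content and a library's deviation from its group mean was −0.75 in shACSS2 replicate 1, 0.65 and 0.54 in shACSS2 replicates 2 and 3, and between −0.10 and 0.16 in NS. Deviations within a group sum to 0, so the coefficients of its libraries depend on each other and do not show which library departs. In a pairwise comparison of counts, chi-square per degree of freedom was 4.28 between shACSS2 replicates 2 and 3. It was 17.3 and 16.8 between shACSS2 replicate 1 and each of them, and 6.82 to 15.8 between NS replicates. Over the 47 initiation factors the Spearman coefficient between GC content and the log2 ratio of shACSS2 replicate 1 to the mean of replicates 2 and 3 was −0.55, a description across genes that share these libraries. The genes that rose had a median GC content of 39.7%, those that fell 40.6% and the rest 49.4%. With the trend in GC content and transcript length removed from each library (a correction added once the data had been looked at), 18 initiation factors were called higher and 3 lower, and the 12 genes called before were all among them. With that correction 13.99% of all genes tested were called higher and 12.97% lower. The median log2FC of the 47 was then 0.10.

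**Figure D5:**
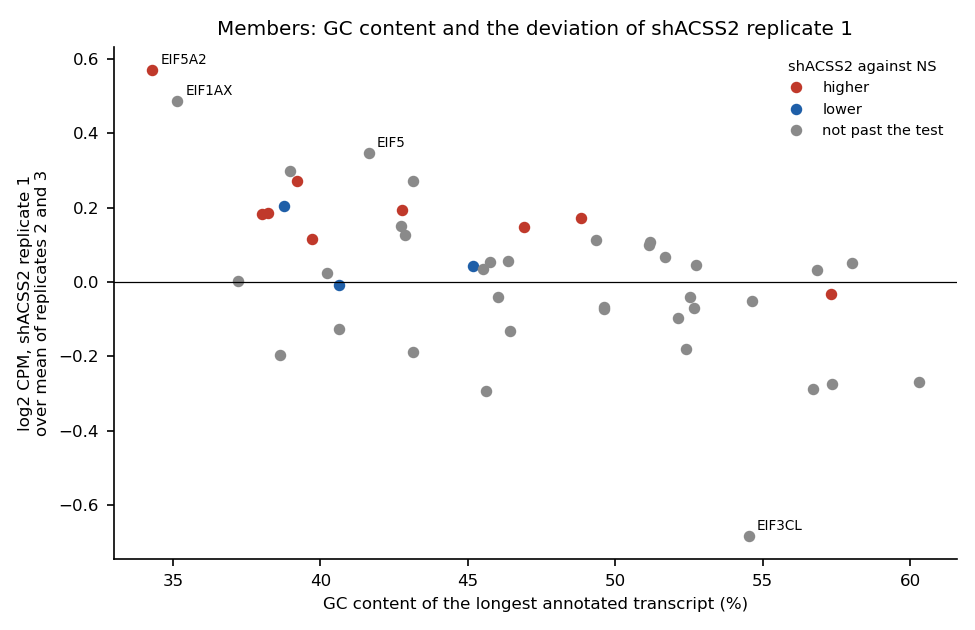
GC content of each tested initiation factor transcript (percent) against the log2 ratio of its CPM in shACSS2 replicate 1 to the mean of shACSS2 replicates 2 and 3. Points fall from left to right (Spearman coefficient −0.55, 47 genes), and EIF5A2 lies at the upper left.

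EIF2S2, EIF3J and EIF4A2, the 3 that fell, have a short sequence in common within their annotated 3′ UTRs. Earlier examination of these same fold changes had picked ATGCTCA and TGCTCAA as the sequences most typical of genes that fell, so their presence is a description and carries no test. One or the other was present in the longest annotated 3′ UTR of EIF2S2, EIF3J, EIF4A2 and EIF2B4, which is 4 of 47 tested initiation factors (8.51%), against 18.0% of the 13263 tested genes whose annotated 3′ UTR reaches 50 bases. Median 3′ UTR lengths were 943 and 1393 bases. The search covered the transcript strand, and ATGCTCA and TGCTCAA overlap in 6 bases. The windows below are shown because they are all the matches among the initiation factors. They are GENCODE v29 transcript sequence, 5′ to 3′, with the match in capitals.
EIF2S2, chr20:34089560-34089589, minus strand: gcaagacgctgATGCTCAAgctgttgacat
EIF3J, chr15:44561959-44561988, plus strand: ctttataaaacATGCTCAgcaaactgcacc
EIF4A2, chr3:186789361-186789390, plus strand: atcttgtctcaATGCTCAtaacggatcaga
EIF2B4, chr2:27366921-27367087, minus strand, across an exon junction: ctggtatatggATGCTCAtctctggtatca
EIF2S2 holds the full match of 8 bases. The window lies in the 3′ UTR of 1 of 1 coding transcript of EIF2S2, 2 of 3 of EIF3J and 2 of 2 of EIF4A2, but in that of only 1 of 6 of EIF2B4. EIF2B4 had 38.2, 39.1 and 38.2 CPM in NS and 42.8, 41.0 and 42.8 CPM in shACSS2 (log2FC 0.13, edgeR adjusted p = 0.381). Which 3′ ends these cells use was not examined here.

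Many mRNAs of the translation apparatus begin with a C followed by a run of pyrimidines, a start that places their translation under mTOR control. The first 5 bases at the annotated RefSeq start (GRCh38.p14) were searched for a C followed by 4 bases that are each C or T, on the transcript strand only. It was present in 10 of 41 initiation factors found in the promoter table (24.4%), against 5.19% of 11161 tested genes and 4.04% of all 27305 promoters there. The 10 count both EIF2S3 and its copy EIF2S3B, which have the same first 15 bases. The called genes EIF3E and EIF2S2 were not found in the promoter table. Holders were 2 of the 8 matched genes that rose, 1 of 2 that fell and 7 of 30 not past the test, so the start was not confined to either direction. The first 15 bases of the 3 called genes, and of EIF4B and EIF3F for comparison, are given 5′ to 3′ with the 5 bases searched in capitals.
EIF3M, chr11:32583831-32583845, plus strand: CTTTTccggtcggcg
EIF2A, chr3:150546787-150546801, plus strand: CTCTTtccgggacaa
EIF4A2, chr3:186783577-186783591, plus strand: CTTTTcagtcgggcg
EIF4B, chr12:53006456-53006470, plus strand: CTTTTgcgttctctt
EIF3F, chr11:7987337-7987351, plus strand: CTTCTttctcgacaa
An annotated start need not be the start used in these cells, and the log2FC values of the 5 genes ran from −0.35 to 0.40.

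A list of 50 other genes of the pathway (regulators, partners, elongation and termination factors) gave 3 higher, 7 lower and 38 not past the test among 48 tested, or 6.25% and 14.6% against the 7.48% and 9.64% of all genes. The genes that rose were PABPC4, a poly(A)-binding protein, EEF1B2, an exchange factor of elongation, and EEF1A1, which delivers aminoacyl-tRNA to the ribosome. PABPC4 stood at 290, 293 and 302 CPM in NS and at 410, 411 and 461 CPM in shACSS2 (log2FC 0.53, SE 0.0906; edgeR adjusted p = 0.00133). EEF1B2 and EEF1A1 had log2FC values of 0.41 and 0.35 (edgeR adjusted p = 0.0122 and 0.0192). Both lost the call without NS replicate 1 or 3, at adjusted p from 0.0762 to 0.130.

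Among the genes that fell, DENR, which works with MCTS1 in re-initiation and in recycling the small subunit, had the smallest p. It stood at 179, 182 and 187 CPM in NS and at 117, 111 and 105 CPM in shACSS2 (log2FC −0.72, SE 0.0912; edgeR adjusted p = 0.000133). BZW2, an eIF5 mimic, and EEF2K, the kinase that inhibits elongation factor EEF2, both had log2FC values of −0.48 (edgeR adjusted p = 0.00505 and 0.00377). MCTS1, the partner of DENR, had one of 0.35 and did not pass the test (edgeR adjusted p = 0.0633). DENR, EEF2K, EIF4EBP2 and GCN1 hold ATGCTCA or TGCTCAA in the longest annotated 3′ UTR, and so does EEF1A1, which rose. Among the 48 tested genes of the list 12 hold it, of which 1 rose, 4 fell and 7 were not called. Since the sequences were picked from these same fold changes as typical of genes that fell, this count is a description and carries no test. The calls among all tested genes that hold them are not given here.

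The repressors of eIF4E and the regulators of eIF2 stood as follows. EIF4EBP2 stood at 202, 198 and 188 CPM in NS and at 171, 144 and 152 CPM in shACSS2 (log2FC −0.33, SE 0.0957; edgeR adjusted p = 0.0272). This call also ended without each library other than shACSS2 replicate 1 (0.0564 to 0.127). EIF4EBP1 had 169 ± 20.9 CPM in NS and 159 ± 13.5 CPM in shACSS2 (SD, n = 3 per group; edgeR adjusted p = 0.591), and EIF4EBP3 had at most 8 counts in a library. None of the 4 kinases of eIF2 alpha passed the test. EIF2AK1, EIF2AK2 and EIF2AK4 had log2FC values of 0.06, −0.02 and 0.05, and EIF2AK3, the kinase of the endoplasmic reticulum, one of −0.36 (edgeR adjusted p = 0.102). GCN1, the activator of EIF2AK4, and RPS6KB2, a kinase downstream of mTOR, were narrowly called, at −0.32 and −0.30 (edgeR adjusted p = 0.0493 and 0.0498), and lost the call with RLE or upper quartile scaling and without each library other than shACSS2 replicate 1. RPS6KB2 also lost it with the replicate block (0.0570) and with no count filter (0.0649). With the GC and length correction EIF4EBP2 and GCN1 were no longer called, at log2FC values of −0.13 and −0.06. DHPS, the first enzyme of hypusine synthesis, had a log2FC of −1.26 (edgeR adjusted p = 0.0175) at 1.90 to 2.12 CPM in NS and 0.684 to 1.099 CPM in shACSS2. It shares 81.1% of its exon bases with other genes on either strand (74.8% on its own strand), so its count is uncertain. Leaving out NS replicate 1 or 3, or replicate 3 of shACSS2, ended the call (0.0597 to 0.0763).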

How the data were processed

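The deposited table holds raw counts per gene, which the authors made and did not normalise. Per the submitters' processing notes, the tools were HISAT2 2.0.5, fastp, DESeq2 (version written as 4.3.1) and featureCounts 1.5.0-p3, and the build hg19. For strand and multi-mapping reads, settings are not given in the sources used. Because all members match GENCODE v29, an annotation of GRCh38, by identifier, coordinates are GENCODE v29 positions. The build of the alignment is not settled.

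The counts of all 58735 genes were fitted with edgeR 4.0.16 in R 4.3.3 (TMM scaling, filterByExpr defaults, robust quasi-likelihood F test on group alone), and p-values were adjusted over 16210 genes at 0.05. SE was taken as the size of log2FC divided by the root of F. Alternatives used limma 3.58.1, DESeq2 1.42.0, other scalings, filters and left-out libraries. Other steps ran in Python 3.11.15, pandas 2.3.3, numpy 2.4.6, scipy 1.17.1 and matplotlib 3.10.9. Replicate pairs differed beyond sampling noise (chi-square per degree of freedom from 4.28 to 17.3). In a library 3 counts are 0.144 to 0.181 CPM, counting error only.

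Members, lists and tests were chosen with earlier results of these data known. Genes named by rule were the members past the test, the member with the smallest p in each role, the listed pathway genes past the test, the 4E-BP genes, the EIF2AK kinases and the 4 most abundant by CPM (EIF4B, EIF3E, EIF5A and EIF4G2), and those singled out further were chosen after their values were seen. One gene of the marker lists is not reported here.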

Additional observations from a re-analysis of the deposited data

How the results depend on the processing

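No direction changed among the 12 called initiation factors. Of 384 values (24 named genes under 16 alternatives each), 331 stayed on their side of the threshold, and 53 were no longer past it. The 5 values that changed sign were all of EIF4G2, which was never called. The count of initiation factors called higher (9) was 14 with DESeq2, 18 with the GC and length correction, 18 with the replicate block and that correction, 2 at an adjusted p of 0.01, and 1 to 17 when each library was left out. The share of all tested genes called higher moved too, from 7.48% to 8.78% with DESeq2, 13.99% with the correction, 13.93% with the block and the correction, 2.04% at an adjusted p of 0.01, and 1.87% to 10.98% with a library left out. The count called lower (3) was 2 to 5 when each library was left out, with 4.28% to 12.5% of all genes called lower. For the other genes of the pathway, to be read against the same shares, the 3 higher became 5 with no count filter (4.42% of all genes), 5 with the replicate block (7.91%), 10 with the GC and length correction, 11 with the block and that correction, 1 at an adjusted p of 0.01, and 1 to 8 with a library left out. The 7 lower became 3 at an adjusted p of 0.01 (4.19% of all genes) and 3 to 12 with a library left out. The cause was not tested. ACSS2 kept its call throughout. Deviations from the group mean had correlations of −0.12, −0.18 and 0.29 between same-numbered libraries, and from −0.30 to 0.32 between the others. Such deviations sum to 0 within a group, so these values cannot decide whether the numbers pair the libraries. The replicate block gave 10 initiation factors higher and 4 lower, EIF3CL being added to the lower ones. With that block 7.91% of all tested genes were higher and 10.1% lower. EIF4E1B, at 0 to 4 counts in a library, stayed under the count filter.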
